A study of Mus musculus with 8 samples.

Results

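Plasma cells of the mouse colonic lamina propria, the connective tissue under the gut epithelium, were picked out of droplet single-cell libraries by their own transcripts. A barcode was taken as a plasma cell where it held at least 2 UMIs (unique molecular identifiers, each counted as 1 captured transcript) of Mzb1 and at least 10 of Jchain, no UMI of Ms4a1, and at most 1 UMI of Cd3e, Cd3d and Cd3g together, 2 of Col3a1 and 1 of C1qa. It also had to hold at least 400 genes and under 20% mitochondrial UMIs. This gave 2828 plasma cells, 2.92% of the 96721 barcodes within those limits on genes and mitochondrial UMIs and part of the 100673 barcodes in all. The members were chosen from measured UMIs, so the levels of these genes are a description.

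The mice were C57BL/6, 10 to 12 weeks old and kept under specific pathogen free conditions. They were wildtype or carried a knock-in substitution in RORgt, the transcription factor of interleukin 17-producing lymphocytes, which the sample titles call S203AKI and the series title RORgtS182A. Untreated mice of either genotype drank water for 10 days. Treated mice of either genotype drank 2% dextran sulfate sodium (DSS), a chemical that damages the lining of the colon, for 7 days, were returned to water for 3 days, and all mice were taken on day 10. Each of the 4 groups (untreated wildtype, untreated S203AKI, DSS wildtype and DSS S203AKI) holds 2 libraries, which the series' design text calls independent biological replicates. The cells had passed through a CD4 T cell isolation kit before loading, so plasma cells are here as cells that the isolation carried along, and their share of the barcodes is not their share of the tissue. The substitution cannot be read from 3′ UMI counts, so the genotype rests on the titles.

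Plasma cells are the antibody-secreting end stage of the B lineage. Those of the gut mostly make dimeric IgA, which the J chain joins and which is carried across the epithelium into the lumen. Xbp1, Prdm1 and Irf4 drive their secretory programme, in which chaperones of the endoplasmic reticulum (ER) fold the chains and ER-associated degradation (ERAD) draws misfolded chains out of the ER. Survival signals reach them through Tnfrsf17 (BCMA), the receptor for APRIL and BAFF, and the chemokine receptor Ccr10 and the integrin chain Itgb7 hold them in the gut.

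The gated cells carried the defining markers of the lineage. In counts per 1000000 non-immunoglobulin UMIs, averaged over the 8 libraries, Sdc1 (syndecan 1, the classical surface marker) stood at 281, Tnfrsf17 at 295, Xbp1 at 1602, Prdm1 at 137, Derl3, an ERAD component, at 439 and Txndc5, an ER disulfide isomerase, at 1435. T cells of the same libraries, taken by at least 2 Cd3 UMIs and fewer than 10 Jchain UMIs, stood at 0.477 for Tnfrsf17 and 1.91 for Derl3. Prdm1 was as high in macrophages, at 147, and Sdc1 was not at the head of the order given below. The B cell regulator Pax5 stood at 0.632 in the plasma cells, against 150 in the 1281 B cells. With all libraries summed, genes at 50 or more were ordered by their ratio to the highest other class, with that class taken as at least 1. With Jchain of the rule set aside, the order began with Ccr10 (409, at most 1.10 in B cells, T cells, macrophages or fibroblasts), Tnfrsf17, Ly6c2 (a surface protein shared with monocytes, 621 against at most 8.70), the agouti gene (67.5 against at most 0.743), Prg2 (a granule protein known from eosinophils, 62.3 against at most 0.275), the secreted protease inhibitor Slpi (1883 against at most 34.0) and Derl3.

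Plasma cells numbered 188 to 521 per library and their summed counts came to between 1616826 and 4694248 UMIs per library, with a median per cell of 6970.5 to 11886 UMIs. No plasma cell barcode was shared between any of the 28 pairs of libraries. Of the members, 18 held 10 to 19 Jchain UMIs and immunoglobulin made up 8.62% of their UMIs, against 1.21% in the 7 barcodes with 5 to 9 that met every other limit; 98 members held exactly 2 Mzb1 UMIs and 104 barcodes just outside held 1. Jchain RNA also reached the T cells, which held a mean of 0.217 to 1.59 Jchain UMIs per cell. Only 112 of the plasma cells are on the authors' list of kept cells, on which every cell holds a Cd4 UMI. Summed markers of other cell types moved with groups in several lists: the 8 T cell markers came to 49.8 to 81.5 per 1000000 non-immunoglobulin UMIs in untreated libraries and 87.6 to 122 after DSS, and of these Cd8a was at 0 in 6 of the 8 libraries. Erythroid genes reached 600 on the same scale in DSS S203AKI replicate 2 and neutrophil genes 376 in DSS S203AKI replicate 1, against at most 1.76 and 3.52 in the other libraries. The B cell list came to 50.4 to 60.2 untreated and 27.3 to 48.2 after DSS, the NK cell and innate lymphoid list to 43.5 to 56.4 and 10.4 to 37.4, and the columnar epithelial list to 13.7 to 16.9 and 5.84 to 8.02. In each of these lists 1 gene made up most of the sum. These were Cd37 (41.0 to 48.9 untreated, 22.7 to 36.7 after DSS), Gzma (39.1 to 49.0 and 8.44 to 32.0) and Krt18 (7.69 to 15.8 and 4.96 to 6.87). Fibroblast genes reached 175 in DSS wildtype replicate 2 and 107 in DSS S203AKI replicate 2, against 6.87 to 33.8 in the rest. Squamous epithelial genes other than Sfn reached 191 in DSS wildtype replicate 2, with 0 in all untreated libraries and 2.29 to 29.9 in the other DSS libraries. The part of these cell types in the results was not tested.

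The share of plasma cells did not differ between the groups beyond the spread between libraries. In the untreated wildtype group it was 3.15% (replicate 1) and 3.36% (replicate 2) of barcodes, and in the untreated S203AKI group 2.01% and 4.29%. After DSS it was 1.74% and 2.86% in wildtype and 3.39% and 2.23% in S203AKI mice. The 2 untreated S203AKI libraries span nearly the whole range, and every group overlaps another. The mean after DSS was 2.56% ± 0.722 (SD, n = 4) against 3.20% ± 0.938 untreated (exact permutation test, two-sided, p = 0.286, adjusted p = 0.909), and S203AKI and wildtype libraries differed by 0.205 percentage points (p = 0.714, adjusted p = 0.909, same exact test). With 4 libraries against 4 the smallest p this test can give is 0.0286, and p-values were adjusted over 14 comparisons of 7 shares.

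Nearly all of these cells made IgA. By the heavy chain constant gene with the most UMIs, 2760 of the 2828 cells were IgA, 64 IgG (29 Ighg2b, 28 Ighg2c and 7 Ighg1) and 3 IgM, and 1 had none that led. IgA made up 96.5% to 98.9% of plasma cells in each library, and IgG 1.06% (DSS wildtype replicate 1) to 3.46% (DSS S203AKI replicate 2). Membership asked for at least 10 UMIs of Jchain, whose product joins IgA. Jchain was lower in IgG than in IgA cells in 8 of 8 libraries. The part of this limit in the class shares was not tested. The IgG share averaged 2.47% ± 1.02 after DSS and 2.07% ± 0.629 untreated (SD, n = 4 each; exact permutation test, p = 0.514, adjusted p = 0.909), with overlapping groups. Lambda light chains led in 137 cells, 111 of them Iglc1, and kappa in 2691. The lambda share was 6.70% and 5.97% in untreated wildtype, 2.36% and 5.93% in untreated S203AKI, 1.60% and 3.65% in DSS wildtype, and 4.03% and 6.06% in DSS S203AKI libraries. DSS wildtype lay below DSS S203AKI, whereas the untreated genotypes nearly met at 5.97% and 5.93%. They overlapped, with a wildtype library at 5.31% and an S203AKI library at 7.58%, when cells were left out that held 2 or more UMIs of any other cell type's marker list (a doublet guard, 1540 cells kept). They also overlapped, at 5.95% and 6.48%, with a guard that does not count Ly6c2 and Sfn, which plasma cells carry (2293 cells kept, chosen after seeing the data). Immunoglobulin genes took 42.5% to 48.7% of all plasma cell UMIs and differed by -1.48 percentage points between DSS and untreated libraries (exact permutation test, p = 0.314, adjusted p = 0.909).

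**Figure D1:**
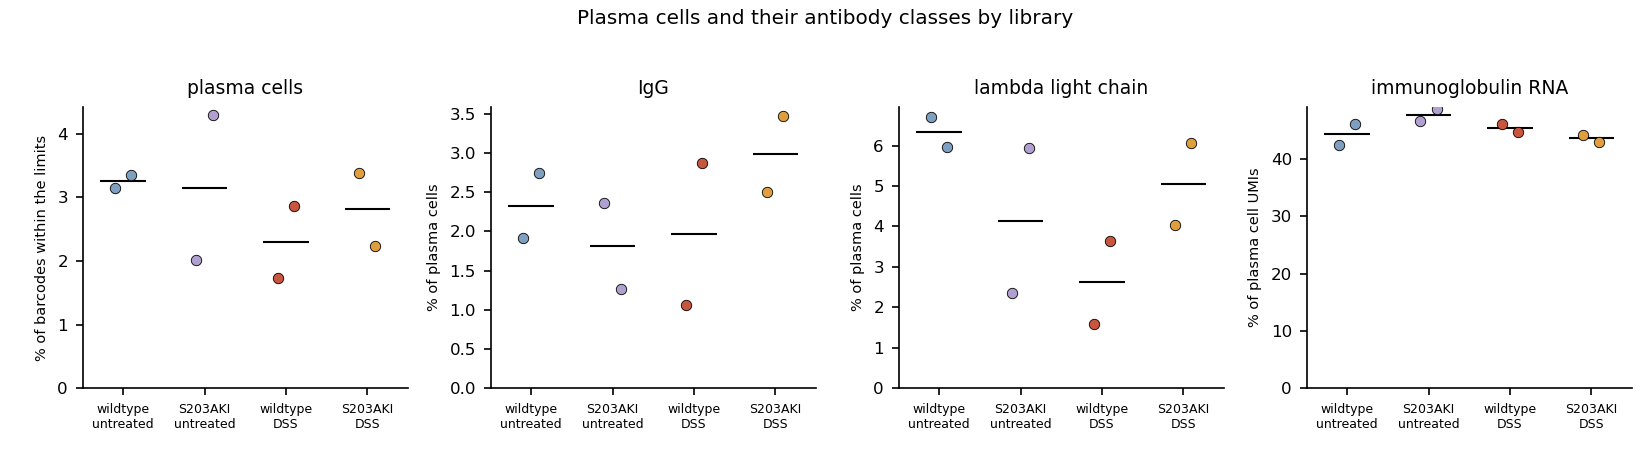
Plasma cells as a percentage of barcodes, IgG and lambda cells as percentages of plasma cells, and immunoglobulin UMIs as a percentage of plasma cell UMIs, by group. Points are libraries and lines the mean of 2; the groups overlap for the plasma cell share, and untreated S203AKI spans 2.01% to 4.29%.

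Levels of several receptor genes were set side by side in the 64 IgG cells and the IgA cells. Summed over libraries, per 1000000 non-immunoglobulin UMIs, Ccr10 stood at 177 in IgG cells and 415 in IgA cells and was lower in IgG cells in 8 of 8 libraries. Tnfrsf17 stood at 83.9 against 306, again lower in 8 of 8 libraries. Jchain, which the membership rule uses, stood at 43995 against 94705 and was also lower in 8 of 8 libraries. Itgb7, the integrin beta 7 chain of gut homing, stood at 114 against 164 and was lower in IgG cells in 6 libraries and higher in 2. Ccr9, another gut homing receptor, had a UMI in 1.56% of the IgG cells (1 cell) and 5.72% of the IgA cells. Cxcr3, a receptor for interferon-induced chemokines, stood at 50.9 against 13.8 and was higher in IgG cells in 7 of 8 libraries, as was Cxcr4, which draws plasma cells toward CXCL12, at 77.9 against 34.3. Xbp1 was alike, at 1438 and 1596, and Mki67, a marker of cycling, was at 458 against 203.01 but higher in only 5 of 8 libraries. Each library holds 2 to 13 IgG cells, and these are values pooled over cells with no test. The Cxcr3 value rests on 17 UMIs in 14 IgG cells. With the doublet guard the IgG share was lower in each library than without it, at 0% to 3.08%. The part of other cell types in these values was not tested. These genes were chosen after their values were seen.

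The cells carried a broad set of V genes. A leading heavy chain V gene (at least 3 UMIs) was found in 2077 cells and was 1 of 90 genes, led by Ighv1-64 and Ighv1-81 with 94 cells each and Ighv3-6 with 93, all 3 found in all 8 libraries. The chance that a pair of cells of a library shared its leading Ighv gene was 2.11% to 2.88% per library, 2.46% ± 0.265 after DSS and 2.73% ± 0.151 untreated (SD, n = 4; exact permutation test, p = 0.143, adjusted p = 0.909). Adding the leading light chain V gene gave a pair of V genes for 2006 cells. The light chain V gene was sought among Iglv genes in lambda cells and Igkv genes in kappa cells only. Iglv UMIs were common in kappa cells too: 1459 of 2691 held at least 3, with a mean of 7.24. A leading V gene near the limit of 3 UMIs may therefore not be the cell's own. The most frequent pair was Ighv1-76 with Igkv5-48, in 33 cells: 16 in untreated wildtype replicate 1, 11 in untreated S203AKI replicate 1, 2 in untreated S203AKI replicate 2, 1 in DSS wildtype replicate 2 and 3 in DSS S203AKI replicate 1. In the first of these libraries the pair made up 5.06% of cells with both V genes (exact Clopper-Pearson 95% interval 2.92% to 8.09%) and in the second 6.47% (3.27% to 11.3%), and the 16 and 11 cells were all IgA. These intervals cover counting error only. A cell of untreated wildtype replicate 1 and a cell of untreated S203AKI replicate 1 shared their pair with a chance of 0.603%, against 0.0622% to 0.221% for the other pairs of libraries.

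Other pairs ranged from those found in 1 library to those found in all 8. Ighv10-1 with Igkv6-15 was found in 12 cells, all of untreated wildtype replicate 1, and Ighv10-1 with Igkv3-4 in 11 cells, all of DSS wildtype replicate 2. Ighv14-2 with Igkv17-121 had 11 of its 22 cells in untreated S203AKI replicate 2. Ighv1-81 with Igkv1-117 was in all 8 libraries, 1 to 9 cells in each and 32 in all. Pairs held by 3 or more cells of their library covered 50.3% of the paired cells in untreated wildtype replicate 1 and 16.2% in DSS S203AKI replicate 2, which hold 316 and 167 such cells. A shared pair of V genes does not show a shared clone, since the counts hold no junction sequence.

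**Figure D2:**
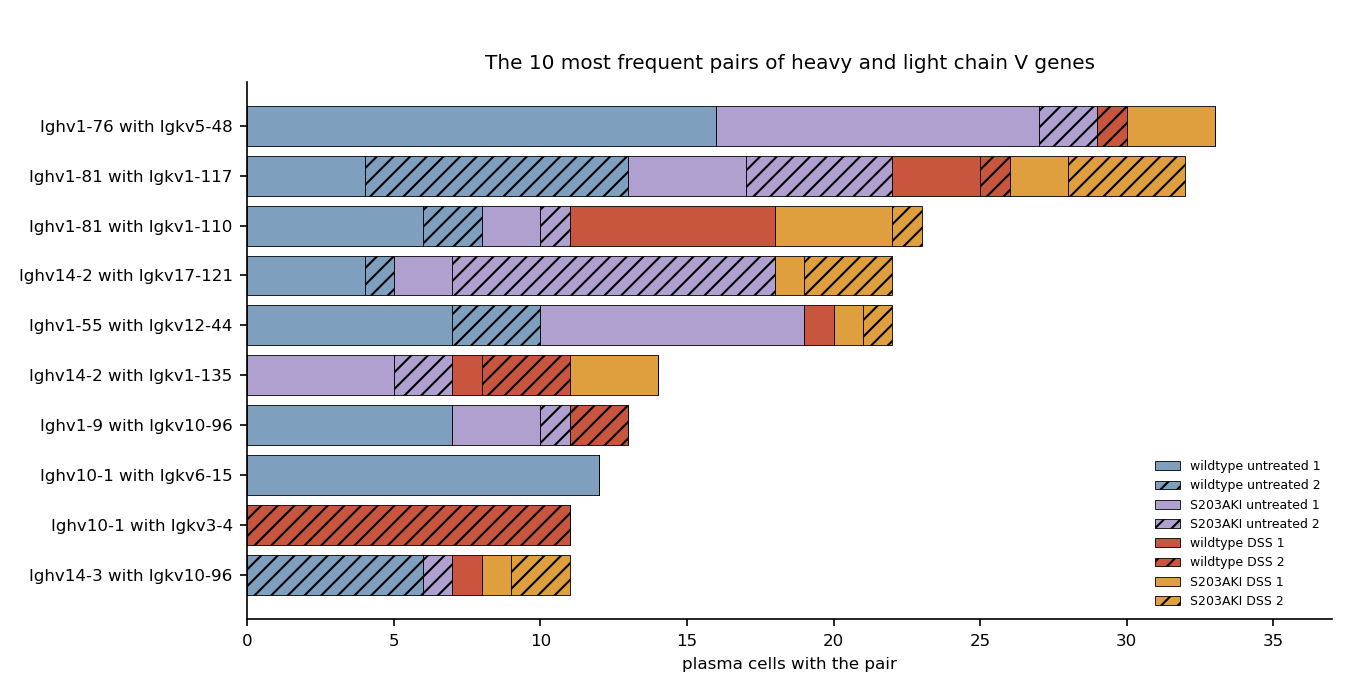
The 10 most frequent pairs of heavy and light chain V genes (vertical axis) by the number of plasma cells that carry them (horizontal axis), stacked by library. Ighv1-76 with Igkv5-48 lies mostly in replicate 1 of the untreated wildtype and untreated S203AKI groups (16 and 11 of 33 cells), and Ighv1-81 with Igkv1-117 spreads over all 8 libraries.

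The germline coding sequences of the leading pair are shown because they are the part of the antibody that the UMIs of the 33 cells name. Each is the first 300 coding bases from GENCODE M21 on GRCm38, 5′ to 3′, with the first coding exon (most of the signal peptide) in capitals. Ighv1-76 lies at chr12:115847881-115848331 on the minus strand, with 2 exons and 351 coding bases, and Igkv5-48 at chr6:69726573-69727138 on the minus strand, with 2 exons and 347 coding bases.
Ighv1-76: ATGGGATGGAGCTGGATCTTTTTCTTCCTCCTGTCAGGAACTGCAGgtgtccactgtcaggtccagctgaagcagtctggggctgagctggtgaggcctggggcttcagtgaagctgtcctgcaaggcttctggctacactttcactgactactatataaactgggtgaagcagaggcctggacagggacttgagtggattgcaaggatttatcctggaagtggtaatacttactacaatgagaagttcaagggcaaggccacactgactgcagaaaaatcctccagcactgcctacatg
Igkv5-48: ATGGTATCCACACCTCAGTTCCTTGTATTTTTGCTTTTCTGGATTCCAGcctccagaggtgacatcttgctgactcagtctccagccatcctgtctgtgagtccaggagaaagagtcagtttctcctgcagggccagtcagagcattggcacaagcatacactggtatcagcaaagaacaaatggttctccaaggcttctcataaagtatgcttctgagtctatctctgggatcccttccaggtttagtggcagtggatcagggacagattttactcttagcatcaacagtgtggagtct

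Plasma cell transcripts changed with DSS when averaged over genotypes. UMIs of the plasma cells were summed per library and tested with edgeR's quasi-likelihood test over 8730 genes, with a gene called at a Benjamini-Hochberg adjusted p under 0.05. Averaged over genotypes, 422 genes (4.83%) were called, 198 higher (2.27%) and 224 lower (2.57%) after DSS. In wildtype mice alone 3 genes (0.0344%) were called, Sbno2 higher and Vim and Lgals1 lower, and in S203AKI mice alone 44 (0.504%), 13 higher and 31 lower. Leaving immunoglobulin genes out of the table gave 349 higher and 393 lower for the average, 14 higher and 13 lower in wildtype, and 71 higher and 102 lower in S203AKI mice. The averaged count was 175 with DESeq2 (165 of them among the 422), 128 (116 among the 422) with the doublet guard and 448 (315 among the 422) with the guard that does not count Ly6c2 and Sfn. It also rested on single libraries: it fell to 23 without DSS wildtype replicate 2, 32 without untreated wildtype replicate 2, 56 and 61 without untreated S203AKI replicates 1 and 2, 123 without untreated wildtype replicate 1 and 155 without DSS S203AKI replicate 2. The wildtype count fell to 0 without either untreated wildtype replicate, and without DSS wildtype replicate 2 none of the 3 genes was called. The S203AKI count fell to 1 and 6 without untreated S203AKI replicates 1 and 2, and to 16 without either untreated wildtype replicate and 27 without DSS S203AKI replicate 2. Values below are counts per 1000000 (CPM) of all plasma cell UMIs, scaled by TMM (edgeR's library scaling), given as replicate 1 and replicate 2.

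Sbno2 and Socs3 had the smallest adjusted p-values of the genes that rose, and Vim of those that fell. Sbno2, a transcriptional co-regulator known as a target of STAT3, stood at 39.5 and 42.6 in untreated wildtype and 17.8 and 23.2 in untreated S203AKI libraries, and at 107 and 187 in DSS wildtype and 131 and 143 in DSS S203AKI libraries. All 4 DSS libraries lie above all 4 untreated ones, as they do for 7.56% of the genes tested. The log2 fold change was 2.28 ± 0.17 (SE, adjusted p = 0.000548, edgeR), 1.86 ± 0.23 in wildtype (adjusted p = 0.0318) and 2.71 ± 0.25 in S203AKI mice (adjusted p = 0.00341). Socs3, which dampens signalling from STAT3-linked receptors and is itself induced by STAT3, stood at 20.5 and 21.4, 15.97 and 15.2, 46.3 and 42.5, and 48.1 and 52.6 in the same order of groups. Its groups also do not overlap, and it rose by 1.38 ± 0.11 (adjusted p = 0.000548, edgeR). Stat3 itself, looked up after its value was seen, stood at 29.5 to 35.1 in untreated and 36.7 to 71.4 in DSS libraries (0.94 ± 0.17, adjusted p = 0.0209, edgeR).

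The same rise was seen as a share of cells. After each cell was thinned to 500 non-immunoglobulin UMIs, 0% to 4.23% of plasma cells held a Sbno2 UMI in the untreated libraries and 10.4% to 13.4% after DSS, against 4.93% to 7.32% of T cells over all libraries. Unthinned, 15.3% to 18.7% of untreated and 34.6% to 54.1% of DSS plasma cells held a Sbno2 UMI. For Socs3 the thinned shares were 1.42% to 2.12% and 2.60% to 5.85%. T cells, which express both genes, gave 8.27% to 12.0% for Socs3, and the part of free RNA in these shares was not tested.

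Junb and Zfp36 also rose. Junb, a subunit of the AP-1 transcription factor, stood at 113 to 164 in untreated and 223 to 330 in DSS libraries (log2 fold change 1.10 ± 0.13, adjusted p = 0.00451, edgeR). Zfp36, which destabilises cytokine mRNAs, stood at 80.3 to 112 and 158 to 272 (1.26 ± 0.14, adjusted p = 0.00377). Crem (a cAMP-responsive regulator), Tnfaip3 (A20, an inhibitor of NF-kB signalling), Lgmn (legumain, a lysosomal protease), Dgat1 (triglyceride synthesis) and Serpina3f (a protease inhibitor) rose by 1.003 to 1.35 on the log2 scale. Of the 14 genes of the heat shock and immediate early list, Fos, Fosb and Junb were called higher, Dnajb1 lower and 10 not called (2.27% and 2.57% of all genes), with a list median of -0.27 against 0.02 over all genes. Leaving out any 1 library kept the calls of Sbno2, Socs3, Junb, Zfp36, Crem, Tnfaip3 and Lgmn. Dgat1 and Serpina3f lost theirs without DSS wildtype replicate 2, each at adjusted p = 0.0576, and Fos and Fosb reached 0.0891 without untreated wildtype replicate 2 and 0.194 without DSS wildtype replicate 2.

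Promoter sequences of Socs3 and Sbno2 are shown because these genes moved together and both have a STAT-type palindrome, TTCNNNGAA, in the 250 bases before a start site. They are RefSeq promoters on GRCm38.p6, 5′ to 3′ on the gene's strand, with the match in capitals, searched on both strands. The Socs3 window is chr11:117969367-117969616 (minus strand, match starting 154 bases before the start) and the Sbno2 window chr10:80101188-80101437 (minus strand, 24 bases before the start); a further Sbno2 promoter in the table has a match 26 bases before its start. The motif was present for 8.13% of all 27025 genes with such a promoter, for 485 of the 6789 tested genes matched to one (7.14%), and for 15 of the 141 matched genes that were called higher (10.6%) and 10 of the 181 called lower (5.52%). The 15 include Socs3 and Sbno2, which are shown because they carry the motif, so their share is no test of it. The others are B4galt1, Gnptg, Il7r, Inpp5a, Nbr1, Pccb, Pla2g7, Serpina3f, Serpina3g, Shmt2, Tnfrsf1b, Uhrf1bp1l and Zfp36. A match is a description of letters and no evidence of binding.
Socs3: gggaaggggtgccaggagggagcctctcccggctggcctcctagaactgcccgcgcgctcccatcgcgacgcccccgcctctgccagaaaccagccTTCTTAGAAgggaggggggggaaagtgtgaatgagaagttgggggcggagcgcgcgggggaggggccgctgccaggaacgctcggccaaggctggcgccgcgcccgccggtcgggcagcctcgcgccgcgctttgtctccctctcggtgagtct
Sbno2: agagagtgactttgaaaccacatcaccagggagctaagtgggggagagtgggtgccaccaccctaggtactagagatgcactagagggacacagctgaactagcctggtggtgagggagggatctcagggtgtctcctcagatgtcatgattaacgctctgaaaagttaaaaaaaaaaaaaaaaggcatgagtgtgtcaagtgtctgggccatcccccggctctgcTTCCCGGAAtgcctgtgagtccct

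Vim, S100a10 and Lgals1 were among the genes that fell. Vim, the intermediate filament vimentin, stood at 757 and 619 in untreated wildtype and 730 and 594 in untreated S203AKI libraries, and at 245 and 226 in DSS wildtype and 269 and 225 in DSS S203AKI libraries. Every DSS library lies below every untreated one, as for 8.33% of the genes tested. Vim fell by 1.48 on the log2 scale (SE 0.12, adjusted p = 0.000548, edgeR), and was called in wildtype and S203AKI mice separately. S100a10, the annexin A2 partner, fell by 1.25 (SE 0.12, adjusted p = 0.00146), from 412 to 516 untreated to 162 to 239 after DSS. Lgals1, the secreted lectin galectin 1, fell by 1.12 (SE 0.10, adjusted p = 0.000806), from 411 to 507 to 210 to 225. Thinned cell shares went the same way: 32.0% to 36.3% of untreated and 13.0% to 14.8% of DSS plasma cells held a Vim UMI.

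The rest of the genes with the largest falls were lower in level. Fxyd5 (a regulator of the sodium pump), Fam212a, Crip2 (a LIM domain protein), Tesc (a calcium-binding protein), Ifi27l2a (interferon-induced), Cd2 (an adhesion receptor), Sfn (14-3-3 sigma) and AY036118 fell by 1.19 to 1.41 on the log2 scale. Sfn stood at 37.6 and 51.5 in untreated wildtype and 79.8 and 118 in untreated S203AKI libraries, and at 21.7 to 30.3 after DSS, and Gimap7, Tubb2a, Dyrk3, Arl4a, Cbfa2t3 and the small heat shock protein Hspb1 were among the largest falls in S203AKI mice. Vim, S100a10, Lgals1 and AY036118 were called with any 1 library left out, whereas Cd2 and Tesc reached adjusted p = 0.134 and 0.129 without DSS wildtype replicate 2. Among V genes, Ighv2-5, Ighv5-16 and Ighv7-3 fell by 3.35, 3.31 and 2.14 and Ighv5-6 and Igkv3-2 rose by 2.41 and 1.33. These sums rest on few cells. Per library, Ighv2-5 led in 2 to 4 cells untreated and 0 to 2 after DSS, Ighv5-16 in 4 to 13 and 1 to 2. Ighv7-3 led in 3 to 9 and 1 to 2, Ighv5-6 in 0 to 9 and 3 to 12, and Igkv3-2 in 0 to 4 and 1 to 6. AY036118 and Gm42418, which moved in opposite directions (-1.20 and 1.07), are transcripts without a named product that also moved in the other barcodes (-1.04 and 0.71). Summed over libraries, Gm42418 stood at 76143 CPM of non-immunoglobulin plasma cell UMIs, where only Jchain was higher. Its part in the values of other genes, through the CPM scale, was not tested.

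**Figure D3:**
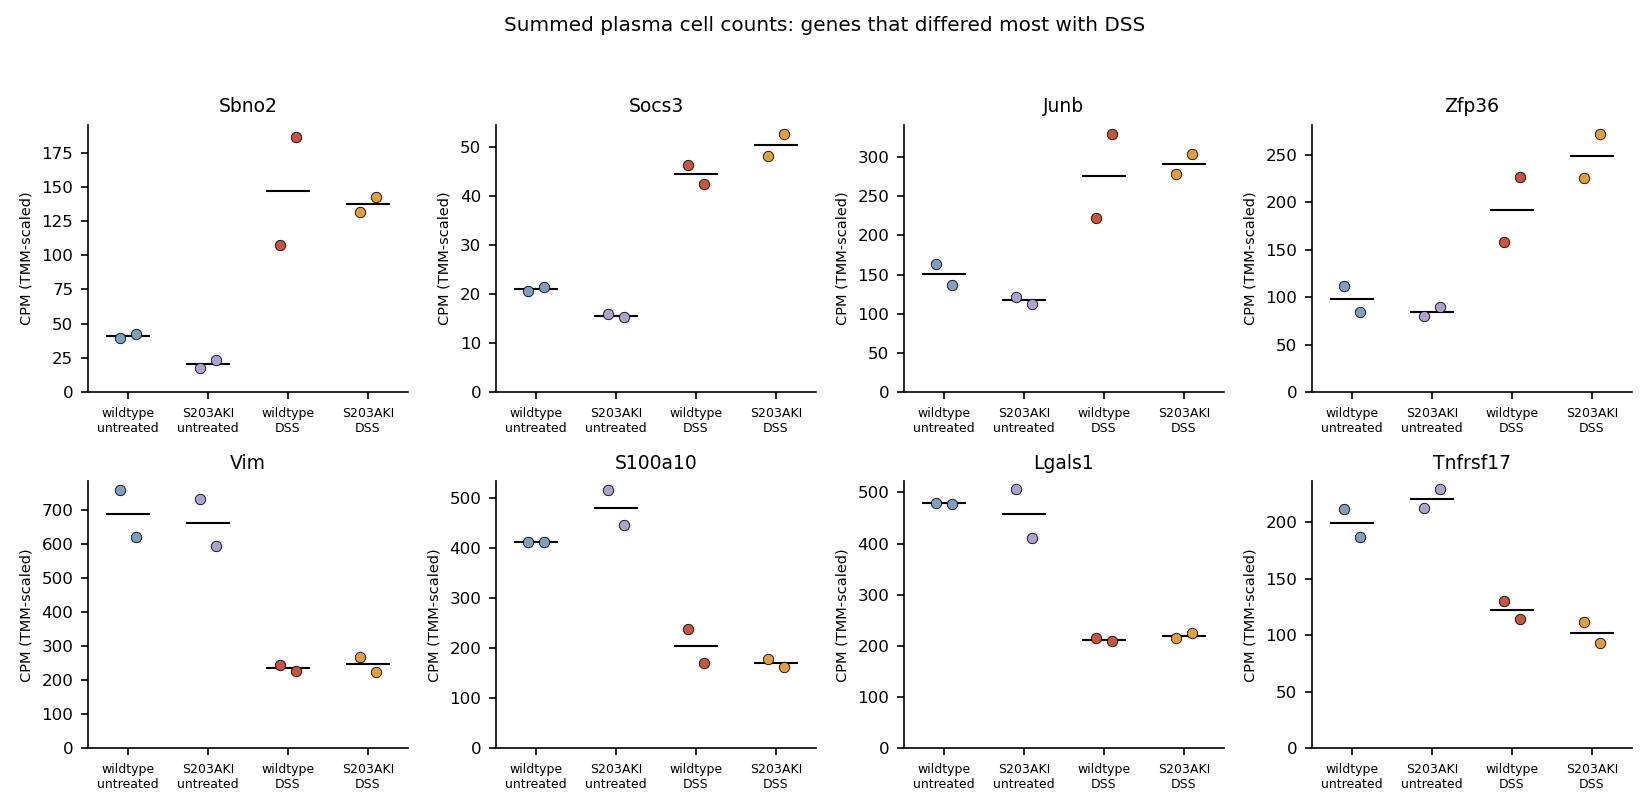
CPM of plasma cell UMIs (TMM-scaled, vertical axes from 0) of 8 genes by group; points are libraries and lines the mean of 2. Sbno2, Socs3, Junb and Zfp36 are higher and Vim, S100a10, Lgals1 and Tnfrsf17 lower in all 4 DSS libraries than in all 4 untreated libraries.

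The IgA heavy chain and part of the secretory pathway rose. Igha stood at 90866 and 94778 in untreated wildtype, 106444 and 106359 in untreated S203AKI, 140668 and 166740 in DSS wildtype and 137152 and 140707 in DSS S203AKI libraries. The DSS libraries are all above the untreated ones, and the log2 fold change was 0.56 ± 0.09 (SE, adjusted p = 0.0133, edgeR). Igkc, the kappa constant region, was at 289156 to 378842 untreated and 261247 to 322303 after DSS (-0.25 ± 0.10, adjusted p = 0.15), and was not called. Of 6 heavy constant genes tested 1 was called, and of 4 light constant genes 0, where 4.83% of all genes were. Igha lost its call without DSS wildtype replicate 2 (adjusted p = 0.0815).

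Among 7 plasma cell transcription factors, 3 were called higher, where 2.27% of all genes tested were, and 0 lower. Pou2af1 (the B cell coactivator OBF-1) stood at 130.5 to 135 in the untreated and 183 to 255 in the DSS libraries, with no overlap (0.69 ± 0.12, adjusted p = 0.016, edgeR). Ell2, an elongation factor that favours the secreted form of the heavy chain, stood at 109 to 138 and 165 to 202 (0.57 ± 0.11, adjusted p = 0.0248), and Creb3l2, a membrane-bound regulator of secretory genes, at 44.8 to 49.4 and 61.9 to 82.3 (0.56 ± 0.11, adjusted p = 0.026). Xbp1 (0.16 ± 0.09, adjusted p = 0.311), Prdm1 (-0.02 ± 0.10, adjusted p = 0.933) and Irf4 (-0.22 ± 0.14, adjusted p = 0.383) were not called.

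Of 12 ERAD genes, 4 were called higher (2.27% of all genes) and 0 lower, with a median log2 fold change of 0.15 against 0.02 for all genes. Syvn1, the ubiquitin ligase Hrd1, stood at 55.4 and 56.2, 55.7 and 58.5, 88.2 and 95.03, and 84.1 and 109 in untreated wildtype, untreated S203AKI, DSS wildtype and DSS S203AKI libraries (0.73 ± 0.11, adjusted p = 0.00993, edgeR). Its adaptor Sel1l rose by 0.65 ± 0.14 (adjusted p = 0.0311), and the mannosidase-like Edem1 and Edem3 by 0.58 ± 0.11 and 0.53 ± 0.10 (adjusted p = 0.0208 and 0.0209). Edem2, Derl3 and Herpud1 were not called, at 0.08, 0.09 and 0.28. Each of the 4 called genes kept its groups apart. Their calls were lost without some libraries: the largest adjusted p was 0.0694 for Syvn1 and 0.113 for Edem1 (without untreated wildtype replicate 2) and 0.146 for Sel1l and 0.12 for Edem3 (without DSS wildtype replicate 2). With the doublet guard, adjusted p-values of Syvn1, Sel1l and Edem3 reached 0.0804, 0.0636 and 0.0588, and those of Pou2af1, Ell2 and Creb3l2 0.0634, 0.0585 and 0.0643. With the guard that does not count Ly6c2 and Sfn all 6 were called, at adjusted p-values of 0.00885 (Syvn1) to 0.0239 (Ell2).

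Of 22 ER chaperone and folding genes, Hyou1, Txndc5, Txndc11 and Ero1lb were called higher (0.37 to 0.51) and 0 lower, where 2.27% and 2.57% of all genes were, and the list median was -0.0016. The abundant chaperones Hspa5 and Hsp90b1 were not called: Hspa5 (BiP) stood at 2165 to 2932 untreated and 2334 to 2896 after DSS, Hsp90b1 at 3929 to 4271 and 2991 to 4525. Of 29 translocation and export genes only Sec61a1, the channel subunit, was called (0.49 ± 0.09, adjusted p = 0.0206, edgeR). Of 10 sensors and stress genes of the unfolded protein response 0 were called (median 0.23), and of 10 glycosylation genes B4galt1, a galactosyltransferase, was, at 2.50 to 5.91 untreated and 4.51 to 11.7 after DSS. Of these 6 genes, Txndc5 lost its call whichever library was left out, and the other 5 in 5 or more of the 8 fits.

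The promoter of Syvn1 is shown because Syvn1 is the called ERAD gene whose window holds the ER stress response element, CCAAT and CCACG with 9 bases of any kind between them, the letters that ATF6 and XBP1 target genes share. The element was in the promoter of 35 of 27025 genes (0.13%), of 12 of the 6789 tested genes matched to one (0.177%) and of 9 of the 51 ER list genes with a promoter (17.6%), which were Calr, Canx, Creld2, Derl3, Dnajc3, Hsp90b1, Hspa5, Pdia6 and Syvn1. Of these 9, only Syvn1 was called after DSS. Both strands of the 250 bases before the start were searched. The window is chr19:6046326-6046575 on the plus strand (GRCm38.p6, RefSeq, match in capitals, starting 44 bases before the start).
Syvn1: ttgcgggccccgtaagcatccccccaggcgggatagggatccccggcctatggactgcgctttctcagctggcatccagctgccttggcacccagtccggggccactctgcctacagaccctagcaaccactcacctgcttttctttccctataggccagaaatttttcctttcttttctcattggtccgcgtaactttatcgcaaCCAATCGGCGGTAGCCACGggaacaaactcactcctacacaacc

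**Figure D4:**
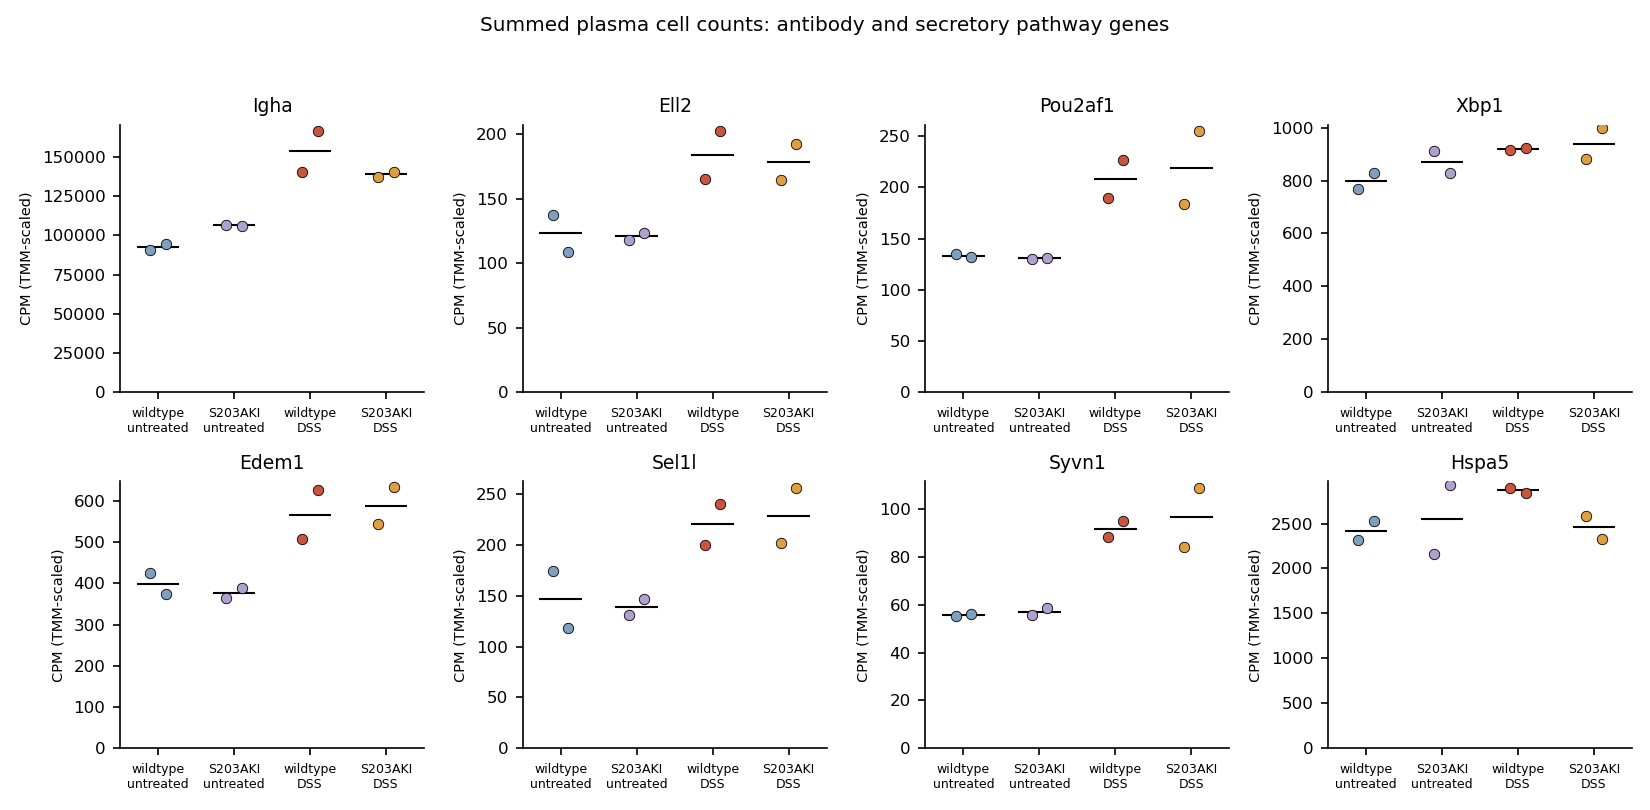
CPM of plasma cell UMIs (TMM-scaled, vertical axes from 0) of Igha, 3 regulators, 3 ERAD genes and the chaperone gene Hspa5, by group; points are libraries and lines the mean of 2. Igha, Ell2, Pou2af1, Edem1, Sel1l and Syvn1 are higher in all DSS than in all untreated libraries, while Xbp1 and Hspa5 were not called.

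Survival and homing genes changed singly. Tnfrsf17 stood at 212 and 187 in untreated wildtype, 213 and 230 in untreated S203AKI, 131 and 114 in DSS wildtype and 112 and 93.2 in DSS S203AKI libraries. It fell by 0.91 on the log2 scale (SE 0.10, adjusted p = 0.00377, edgeR), with no overlap and with any 1 library left out, and was the only call among 15 survival genes, where 4.83% of all genes were called. Tnfrsf13b (TACI, the other receptor for the same ligands) was not called (-0.20 ± 0.12, adjusted p = 0.318), nor were Sdc1 (0.27 ± 0.12, adjusted p = 0.19) and the survival factor Mcl1 (-0.20 ± 0.11, adjusted p = 0.317). Among 14 homing genes Cxcr4 was called higher (9.84 to 15.9 untreated, 18.0 to 30.2 after DSS) and Itgb7 lower (86.6 to 111 and 55.3 to 80.02), each call kept in only 1 of the 8 fits with a library left out; of all genes 2.27% were called higher and 2.57% lower. Ccr10 was not called (-0.42 ± 0.16, adjusted p = 0.152), though its DSS libraries all lie below its untreated ones, and stood at 120 in DSS S203AKI replicate 2 against 202 to 279 in the other 7 libraries.

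The lists of other programmes are given as counts, beside 2.27% of all genes tested called higher and 2.57% called lower. Of 15 cell cycle genes 0 were called (median -0.18), and a thinned 4.87% to 8.46% of plasma cells held a Mki67 or Top2a UMI, against 4.46% to 7.27% of T cells. Of 15 interferon-induced genes Bst2 and Ifi27l2a were lower and 0 higher, of 7 MHC class II genes H2-DMa was lower and 0 higher, and of 11 glycolysis and hypoxia genes and 6 B cell genes 0 were called. Among 9 regulatory genes Vegfa, an angiogenic factor, was called higher (0.910 to 3.19 untreated, 2.57 to 12.0 after DSS) and Lgals1 lower. Slpi and Prg2 were among the largest rises. Both are secreted proteins that were far higher in plasma cells than in B cells, T cells, macrophages and fibroblasts. Other cell types, such as neutrophils, eosinophils and epithelial cells, were not compared. Slpi stood at 517 and 464, 448 and 777, 2567 and 1431, and 1740 and 835 in the same order of groups (1.55 ± 0.26, adjusted p = 0.0158, edgeR), and Prg2, a granule protein of eosinophils, at 12.7 to 20.03 untreated and 32.9 to 86.1 after DSS (1.71 ± 0.28, adjusted p = 0.0139). Without untreated wildtype replicate 2 they reached adjusted p = 0.101 and 0.091. The thinned share of plasma cells with a Slpi UMI was 27.8% to 35.2% in untreated libraries and 51.6%, 38.5% and 47.2% in 3 of the DSS libraries, but 26.4% in DSS S203AKI replicate 2, below all untreated ones. The most Slpi UMIs in 1 cell were 52 to 114 untreated and 213 to 646 after DSS.

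Several of the largest rises were in genes of low level that other cells express. Vcam1, an adhesion molecule, stood at 1.14 to 3.11 untreated and 9.65 to 27.6 after DSS (3.25 ± 0.39, adjusted p = 0.00459, edgeR), the mannose receptor Mrc1 at 1.37 to 3.11 and 6.91 to 17.3, the prostaglandin synthase Ptgs2 at 0.228 to 1.37 and 3.86 to 22.9, and the acute phase protein Saa3 at 0.228 to 1.87 and 2.57 to 32.0. Their thinned shares after DSS were 0.532% to 3.65% for Vcam1, 0.768% to 2.60% for Mrc1, 0% to 2.08% for Ptgs2 and 0.532% to 3.46% for Saa3. T cells of the same DSS libraries gave 1.87% to 5.24%, 0.762% to 2.79%, 1.09% to 3.79% and 1.14% to 6.13%, and macrophages over all libraries 13.0% to 52.8% for Vcam1. The plasma cell ranges overlap those of the T cells for all 4 genes, and the part of free RNA was not tested. Krt14, a keratin of squamous epithelium, had 0 UMIs in all untreated plasma cells, and 146 of its UMIs after DSS lay in 1 cell of DSS wildtype replicate 2. Cd4, itself among the T cell markers given above, was at 1.37 to 5.29 untreated and 7.52 to 12.0 after DSS. The part of T cells in it was not tested. Cyp4f18, an enzyme of leukotriene breakdown, was at 1.45 to 5.46 and 8.27 to 13.0.

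To see which of these differences went beyond what the whole library did, the DSS effect in plasma cells was set against that in all other barcodes of the same library. The mix of cells in the other barcodes also differed: fibroblasts numbered 1219 to 2232 per untreated library and 320 to 1089 per DSS library. A value of the other barcodes may carry that change of mix, and its part was not tested. Over 15474 genes, 763 (4.93%) were called different by edgeR, 444 (2.87%) more positive and 319 (2.06%) more negative in plasma cells. A limma fit on the per-library log2 differences, added after the data were seen, covered only the 8726 genes that passed the count filter in plasma cells. It called 66, and 57 of them were called by both. Where both are given below, the edgeR adjusted p-values lie far below those of limma. They rest largely on a spread pooled over genes and do not measure the spread between the 8 libraries. Sbno2 moved by 0.21 in the other barcodes, a difference of 2.07 (adjusted p = 1.13e-35, edgeR; 0.0196, limma). Socs3 moved by -0.02 there (difference 1.42, adjusted p = 3.44e-14, edgeR; 0.0432, limma), and Fos stood at -1.01 in the other barcodes while it rose in plasma cells (difference 1.68, adjusted p = 3.04e-30, edgeR; 0.0299, limma). Sfn stood at 1.71 in the others (difference -2.97, adjusted p = 9.84e-69, edgeR; 0.0196, limma), S100a10 by -0.24 (difference -0.996, limma adjusted p = 0.0358) and Fxyd5 by -0.12 (difference -1.22, limma adjusted p = 0.0432).

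Zfp36 differed by 0.90 from the other barcodes (adjusted p = 9.63e-08, edgeR; 0.0499, limma). Junb and Vim differed by 1.06 and -0.84, called by edgeR (adjusted p = 2.99e-12 and 8.47e-08) and not by limma (0.0594 each). Tnfaip3 (0.89 in the other barcodes), Dgat1 (1.24), Prg2 (1.61), Crem (0.74), Syvn1 (0.62), Edem1 (0.76) and Ell2 (0.67) were not called different. The other barcodes also hold free plasma cell RNA, so their values of Igha (0.78), Slpi (1.92), Prg2 and Tnfrsf17 (-0.76) may carry plasma cell transcripts. The size of that part, and of any part from cell types that were not compared, was not tested. Of the 422 genes called in plasma cells, 140 were called different from the other barcodes by edgeR and 23 by limma. Over all genes edgeR called 763 of 15474 (4.93%) and limma 66 of 8726. The 422 genes were picked by their DSS effect in plasma cells, which also enters the difference. Their higher share is therefore no separate result. Plasma cells and other barcodes come from the same libraries.

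**Figure D5:**
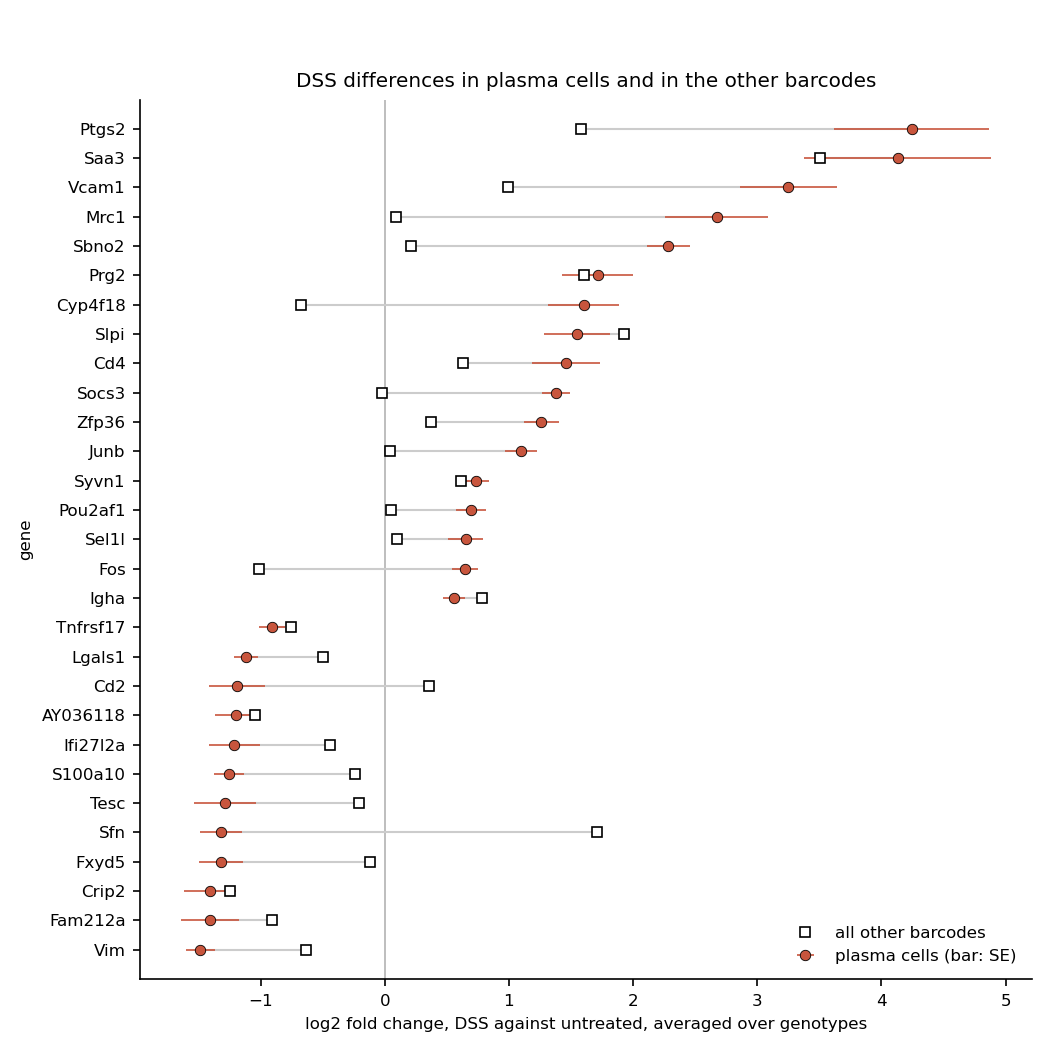
Log2 fold change of DSS against untreated, averaged over genotypes, in plasma cells (filled circles, bars are SE) and in all other barcodes (open squares), for the genes with the largest changes and 10 others of the text; Krt14 is left out. Sbno2 (2.28 and 0.21), Fos (0.65 and -1.01) and Sfn (-1.32 and 1.71) differ most plainly, while Prg2, Crip2 and AY036118 lie together.

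The S203AKI substitution gave no called gene in plasma cells in the edgeR fit of all 8 libraries without a block. In that fit 0 of 8730 genes were called between S203AKI and wildtype in mice without DSS (299 had an unadjusted p below 0.05), after DSS (251) or averaged over treatments (268), and DESeq2 called 1, 1 and 2. In mice without DSS, edgeR called 11 genes from the 4 libraries compared alone, 121 without a filter on low counts, 3 with the doublet guard and 0 with the guard that does not count Ly6c2 and Sfn. The interaction of DSS with genotype was also called for 0 genes (297 at an unadjusted p under 0.05, 2 by DESeq2), so in this fit no DSS response was shown to differ between the genotypes. The smallest adjusted p of the interaction was 0.0771. Sbno2 rose by 1.86 in wildtype and 2.71 in S203AKI mice, and its interaction was not called.

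Heat shock genes were higher in both untreated S203AKI libraries without passing the test in the edgeR fit of all 8 libraries without a replicate block. Hspa1a, the inducible Hsp70, stood at 96.1 and 235 in untreated wildtype and 752 and 784 in untreated S203AKI libraries, and at 88.4 to 258 after DSS. Hspb1 stood at 47.0 and 54.1 against 162 and 228, and Dnajb1, an Hsp70 co-chaperone, at 95.2 and 162 against 219 and 365. The untreated genotypes do not overlap for these genes, which with 2 libraries a group is so for 33.1% of all genes tested. Of the 14 genes of the heat shock and immediate early list 11 had a positive sign in untreated S203AKI mice, with a median of 0.48 against -0.0044 over all genes. Without overlap 8 were higher, where 16.2% of all genes were, and 3 lower. In S203AKI mice Hspb1 was called lower after DSS (-2.47 ± 0.40, adjusted p = 0.0372, edgeR), and in the other barcodes it moved by -1.47 with DSS, averaged over genotypes.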

How the data were processed

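For every library the authors deposited its raw UMI counts, genes by barcodes, which were used unchanged. Per the submitters' processing notes, Cell Ranger 3.1.0, Seurat 4.0.1 and mm10 were used. Rows were named from the deposited list of 31053 symbols. The gating limits are those of the opening; no doublet caller was run, and 434, 271, 240 and 135 barcodes with enough Mzb1 and Jchain fell to the Cd3, Col3a1, C1qa and Ms4a1 limits. A doublet guard, which removes cells with 2 or more UMIs of another type's markers, is an alternative (1540 cells; 2293 when Ly6c2 and Sfn, which plasma cells carry, are not counted).

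Counts were summed per library and tested in R 4.3.3 with edgeR 4.0.16 (TMM, filterByExpr, quasi-likelihood, 4 groups), with DESeq2 1.42.0 and limma 3.58.1 as alternatives, after checks on simulated data. Libraries held 1616826 to 4694248 plasma cell UMIs. Nothing but the design text says that libraries came from separate animals, and p-values measure the spread between libraries. The edgeR p-values against the other barcodes are an exception, since they rest largely on a spread pooled over genes. Genes named per comparison are, among called genes whose groups do not overlap and whose mean is at least 10 CPM in the higher group, the 10 largest rises and 10 largest falls, with at most 3 immunoglobulin V genes each way, beside members of 18 gene lists. Members and lists were chosen with earlier results of these data known. Shares were tested with exact permutation tests (scipy 1.17.1). Other settings were a stricter limit (30 Jchain and 5 Mzb1 UMIs, 2480 cells), no filter on low counts, no immunoglobulin genes, a replicate block and leaving out each library.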

Additional observations from a re-analysis of the deposited data

Results flagged for a closer look

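The following values were singled out because both libraries of one group moved one way and both of the other the opposite way. For the genes, the interaction of DSS with genotype was not called for any of the 8730 genes tested in the edgeR fit without a replicate block. With the replicate block described below it was called for 4. For the 2 shares the difference was not tested. The log2 fold change of S203AKI against wildtype was 0.48 for Cbfa2t3, a transcriptional corepressor, in untreated mice and -0.27 after DSS, and -0.43 and 0.18 for Socs3. V genes showed the same pattern, given as a difference of mean CPM. They rest on few cells: over all libraries Ighv4-1 and Igkv4-58 each led in 12 cells, Igkv3-2 in 22 and Ighv5-6 in 43. Ighv4-1 differed by -20.9 between DSS and untreated wildtype mice and by 56.4 in S203AKI mice, or by -18.8 between the genotypes when untreated and 58.5 after DSS. Igkv4-58 differed by 6.19 and -24.7 with DSS in wildtype and S203AKI mice, and by 24.6 and -6.33 between the genotypes when untreated and after DSS. Between the genotypes Ighv5-6 differed by 10.2 untreated and -7.21 after DSS, and Igkv3-2 by -7.41 and 18.4. The lambda share differed between S203AKI and wildtype mice by -2.19 percentage points untreated and 2.42 after DSS, and the immunoglobulin share of UMIs by 3.35 and -1.78. With the stricter limit the untreated genotypes overlapped in the immunoglobulin share (46.2% in a wildtype and 45.9% in an S203AKI library). With the guard without Ly6c2 and Sfn they overlapped after DSS (46.1% and 46.3%).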

How the results depend on the processing

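Counts of called genes moved with the processing, and the cause was not tested. DSS in wildtype mice (3 genes) gave 21 with DESeq2, 363 without a filter on low counts, 27 without immunoglobulin genes, 8 with the doublet guard, 13 with the guard without Ly6c2 and Sfn, 18 from the 4 libraries compared alone, and 0 to 14 leaving out each library. DSS in S203AKI mice (44) gave 74, 596 and 173 under the first 3 of these, 27 with stricter limits, 68 with the guard without Ly6c2 and Sfn, and 1 to 78 leaving out each library. The average over genotypes (422) gave 175, 1142 and 742, 128 with the doublet guard, 448 with the guard without Ly6c2 and Sfn, and 23 to 414. S203AKI against wildtype in untreated mice (0) gave 1 with DESeq2, 121 without the filter, 2 with stricter limits, 3 with the guard, 11 from the 4 libraries alone and 0 to 2; after DSS (0) it gave 1, 130 and 0 to 5, and averaged (0) 2, 103 and 0 to 0. The interaction (0) gave 2, 126, 1 with stricter limits, 2 with the guard, 1 with the guard without Ly6c2 and Sfn and 0 to 2. The difference from the other barcodes (763) gave 211 with DESeq2, 292 with the guard and 375 to 831 leaving out each library. It gave 66 with limma, which covered 8726 genes.

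The guard without Ly6c2 and Sfn and the limma fit were chosen after seeing the data. The IgM share, 0.0338 percentage points higher in either contrast, became -0.111 with the guard and -0.0744 with the guard without Ly6c2 and Sfn, and the lambda share, 0.118 higher in S203AKI mice, became -0.205 with the latter and -0.36 where a class needed 80% of its chain. Leaving out each library, the differences between S203AKI and wildtype ran from -0.692 to 0.0964 for IgA, -0.0622 to 0.096 for IgM (likewise with DSS), -0.109 to 0.626 for IgG, -0.843 to 0.864 for lambda, -0.257 to 1.68 for the immunoglobulin share and -0.232 to 0.529 for the plasma cell share. The other leave-one-out ranges were -0.936 to -0.136 (IgA), 0.0701 to 0.87 (IgG), -2.37 to -0.661 (lambda), -2.64 to -0.557 (immunoglobulin) and -1.05 to -0.284 (plasma cells) with DSS, and for a shared Ighv gene -0.363 to -0.162 with DSS and 0.141 to 0.375 for S203AKI. The labels name no pairing, but titles hold neighbouring numbers across genotypes within a treatment. A replicate block of these 4 sets, chosen after seeing the data, called 9 genes in untreated mice (among them Hspb1, Dnajb1, Hspe1 and Sfn, all higher in S203AKI), 1 after DSS, 2 averaged and 4 for the interaction, against 0 each without it; the remaining calls were all V genes. The deviations of same-set libraries from their group means correlated at 0.0039 and 0.0501 across genes, and DSS, which lies between sets, could not be fitted with this block. In V gene pairs the set of the untreated replicate 1 libraries had the highest chance of a shared pair, 0.603%, against 0.221% for the next library pair. The other sets stood at 0.131%, 0.158% and 0.0712%. Whether libraries of a set share an origin was not tested. With 188 to 521 cells per library, genes of a few UMIs per library are at the limit of what these counts can show.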
